A study of Mus musculus with 2 samples.

Results

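Heterotrimeric G proteins carry signals from receptors at the cell surface, and RGS proteins shorten those signals. The genes described here were chosen by name: protein-coding genes for the G alpha, G beta and G gamma subunits (Gna, Gnb and Gng symbols) and for the numbered RGS proteins, with Rgs5, Rgs9 and the stimulatory gene Gnas outside the set. This gave 51 genes of 55536 in the tables, or of 22028 protein-coding genes: 15 for G alpha, 5 for G beta, 12 for G gamma and 19 for RGS proteins. The rule uses gene names and transcript types, not levels.

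A G alpha subunit bound to GDP sits with a G beta and gamma pair, and an activated receptor makes it exchange GDP for GTP, which frees G alpha and the G beta gamma pair to act on their targets. Gi/o subunits lower cyclic AMP and free G beta gamma pairs that open potassium channels, Gq subunits switch on phospholipase C beta, and Gs-type subunits raise cyclic AMP. RGS proteins speed the hydrolysis of GTP by G alpha and so end the signal. In cortex these proteins serve the receptors for glutamate, GABA, acetylcholine, serotonin, noradrenaline and many peptides.

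The tissue was left cerebral cortex from 2 male mice of strain B6CASTF1/J, aged 36 days, with 1 library of total RNA per mouse made from 300 ng after reduction of ribosomal RNA and addition of ERCC spike-in RNAs. The labels number the mice as biological replicates 1 and 2 but give both the same donor identifier, so the SDs below measure the spread between these samples. There was 1 group, and no comparison between conditions or p-value was possible. Total expected counts, the reads assigned to all listed genes, were 29915463 in replicate 1 and 27988085 in replicate 2, of which the 51 genes took 0.404% and 0.389%. Marker lists for excitatory and inhibitory neurons, astrocytes, oligodendrocytes and microglia were detected in full, and 5 of 6 endothelial and mural markers were. Levels are in TPM (read count per transcript length, scaled to a fixed sum in each library). In bulk tissue fewer cells of a type and less RNA per cell cannot be told apart.

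Of the 51 genes, 37 reached a TPM of 1 or more in each mouse, called expressed below, against 58.6% of all protein-coding genes. By family these were 10 of 15 G alpha, 4 of 5 G beta, 9 of 12 G gamma and 14 of 19 RGS genes. The median over all 51 genes was a TPM of 22.9 ± 1.37 (SD, n = 2), and the median over all protein-coding genes was 3.66 ± 0.233. Summed TPM was 806.5 ± 14.7 for G alpha, 733 ± 13.2 for G beta, 418 ± 6.45 for G gamma and 534 ± 35.0 for RGS genes. On the log2(TPM + 1) scale the family medians were 5.02 ± 0.11, 6.19 ± 0.07, 4.68 ± 0.01 and 4.51 ± 0.03.

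**Figure D1:**
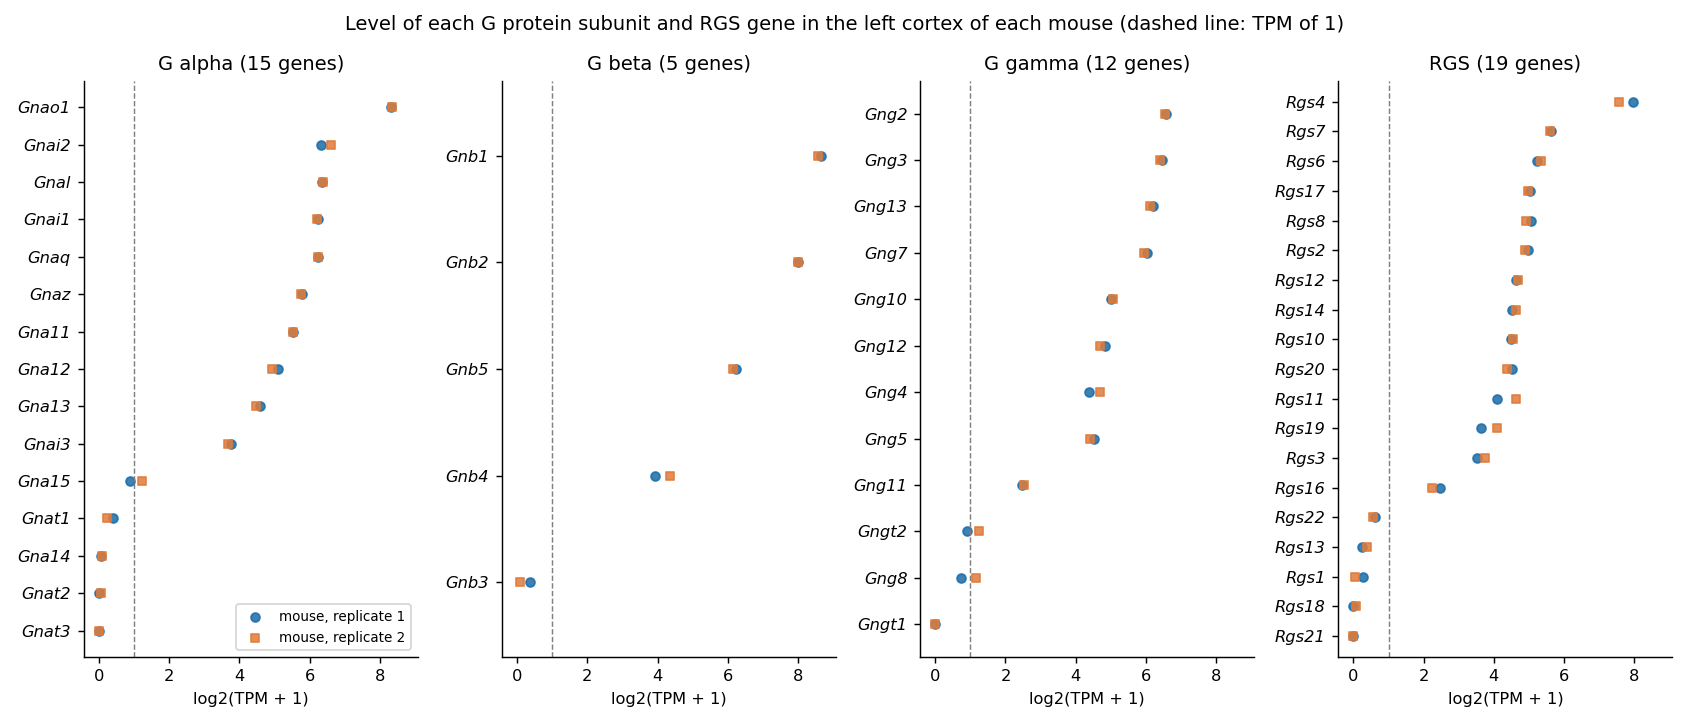
Level of each of the 51 genes on the log2(TPM + 1) scale, with 1 point per mouse and 1 panel per family, and a dashed line at a TPM of 1. Gnao1, Rgs4, and Gnb1 with Gnb2 lie far to the right of the other members of their families, while the leading G gamma genes lie closer together. In all, 14 genes have a point left of the line in at least 1 mouse.

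Among Gi/o subunits, Gnao1 was the most abundant by a wide margin. Gnao1 (chr8:93809966-93969388 in mm10, plus strand) encodes G alpha o, the main G alpha protein of brain. Its TPM was 318 in replicate 1 and 327 in replicate 2, above 99.4% of protein-coding genes. It held 40.0% ± 0.065 of the summed TPM of the 15 G alpha genes in the set. That sum leaves out Gnas, which was higher than Gnao1 at 754 ± 10.4. The inhibitory subunit Gnai2 stood at 79.0 and 97.5, Gnai1 at 75.0 and 73.5, and Gnai3 at 12.7 and 11.9. The difference of Gnao1 from Gnai1 was 2.10 ± 0.05 on the log2(TPM + 1) scale, or 2.70 ± 0.09 in the tables quantified directly from the reads, called read-based, and from Gnai2 it was 1.87 ± 0.18. Gnai1 and Gnai2 were close to each other, and the TPM of Gnai2 spread more between the mice than that of Gnai1. The log2 ratios of scaled counts between the mice, described below, were alike in size, at 0.09 for Gnai2 and -0.09 for Gnai1. Gnaz, a G alpha insensitive to pertussis toxin, was intermediate at 54.6 and 53.1. The transducins of rods and cones, Gnat1 (0.31 and 0.18) and Gnat2 (0 and 0.05), and the taste cell subunit gustducin, Gnat3 (0 counts in both mice, which allows a TPM of up to 0.121 and 0.129), completed this class.

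Gnao1 is known to give 2 full-length proteins through alternative last coding exons, and both were present. They have 354 codons each and share their first 737 coding bases. The last 60 coding bases, which encode the tail of the protein that meets the receptor, are shown because they tell the forms apart. Both were read from the GENCODE M21 transcripts on the plus strand, and capitals mark the 15 bases at which they differ.
Gnao1-201 and Gnao1-203, ending in the exon chr8:93966868-93967052: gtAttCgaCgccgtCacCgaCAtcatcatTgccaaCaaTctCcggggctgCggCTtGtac
Gnao1-207, ending in the exon chr8:93956065-93956249: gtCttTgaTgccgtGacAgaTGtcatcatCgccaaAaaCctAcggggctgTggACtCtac
The form of Gnao1-201 and Gnao1-203 was at a TPM of 214.5 and 216 in replicates 1 and 2, and the form of Gnao1-207 at 35.6 and 34.9. The first thus held 85.9% ± 0.216 of the full-length coding TPM. In the read-based tables it held 85.4% ± 0.227. The ratio of the 2 full-length forms thus hardly moved, but their part of the whole did. Gnao1-206, with a coding sequence of 539 bases, held 6.99% ± 1.27 of all Gnao1 coding TPM in the alignment-based tables and 33.6% ± 2.65 in the read-based ones, where it was the leading transcript.

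Of the Gq class, which couples to phospholipase C beta, cortex expressed Gnaq and Gna11. Gnaq (chr19:16132831-16387463, plus strand) stood at a TPM of 73.9 and 74.1 in replicates 1 and 2, and Gna11 (chr10:81528724-81545190, minus strand) at 45.4 and 45.6. The mice were nearly equal for each gene, and Gnaq exceeded Gna11 by 0.69 ± 0.00071 on the log2(TPM + 1) scale. Gna15, known from blood cells, was at 0.86 and 1.36 on 27 and 39 counts, and Gna14 at 0.04 and 0.07 on 1 and 4 counts. Gnaq also has processed pseudogenes within its own span, of which Gm10819 carried 31.4 and 33.0 counts and Gm17068 24 and 21, few beside the 7603 and 7108 of Gnaq. Both G12/13 subunits were expressed, Gna12 at 33.4 and 29.7 and Gna13 at 22.8 and 21.2. Gna12 was the higher in both mice, with a log2 difference of Gna13 from Gna12 of -0.50 ± 0.04.

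The Gs-type member Gnal encodes G alpha olf, known from olfactory neurons and striatum, where it carries dopamine and adenosine signals to adenylyl cyclase. It stood at a TPM of 80.1 and 81.7 in the left cortex, level with Gnai1 and Gnaq. Gnas, the widely used stimulatory gene, was at 754 ± 10.4, and Gnal lay below it by a log2 difference of -3.20 ± 0.00021. Beside this level, all 6 markers of striatal projection neurons were detected (summed TPM 251 and 217), led by Ppp1r1b at 134 and 121. Of 4 olfactory sensory neuron markers 1 was expressed, with a sum of 2.98 and 3.31. Their part in the level of Gnal was not tested. Gnal-201, with a coding sequence of 1344 bases, held 56.7% ± 0.086 of the coding TPM, and the transcripts with a coding sequence of 1143 bases held 39.3% ± 1.06. In the read-based tables these shares were 50.3% ± 0.558 and 45.3% ± 0.779, so both forms were seen in either table.

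Among G beta subunits, Gnb1 and Gnb2 made up most of the RNA. Gnb1 (chr4:155491361-155559269, plus strand) was the most abundant of all 51 genes, at a TPM of 401 and 378 in replicates 1 and 2. Gnb2 (chr5:137528127-137533510, minus strand) stood at 253 and 257. Gnb1 held 53.1% ± 1.21 of the G beta sum and exceeded Gnb2 by 0.61 ± 0.07 on the log2 scale, or by 1.36 ± 0.10 in the read-based tables. Gnb5, the G beta that pairs with R7 RGS proteins in place of a G gamma subunit, was at 74.4 and 69.5. Gnb4 followed at 14.1 and 19.3, which is -4.48 ± 0.36 from Gnb1 on the log2 scale, or -5.16 ± 0.04 in the read-based tables. Gnb3, known from cones and taste cells, was at 0.28 and 0.06 on 8 and 2 counts, all of them on transcripts that are not protein-coding.

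The G gamma subunits were spread more evenly. The leading 4 lay within a narrow range: Gng2 at 93.9 and 92.8, Gng3 at 86.6 and 84.1, Gng13 at 71.9 and 67.8, and Gng7 at 64.9 and 60.01. Gng2 and Gng3 are known as neuronal subunits, Gng7 as the partner of G alpha olf in striatum, and Gng13 from taste cells and retina. Which of them led depended on the table. Gng2 held 22.3% ± 0.160 of the sum in the alignment-based tables. The read-based tables put Gng7 first at a mean TPM of 112, with Gng3 at 99.1, Gng2 at 88.2 and Gng13 at 42.6. That mean of Gng13 was not stable, as it came from 30.3 and 55.0 in replicates 1 and 2, on 176 and 145 estimated counts. The log2 difference of Gng3 from Gng2 was -0.13 ± 0.02 and became 0.17 in the read-based tables, so their order is uncertain. Gng13 rested on 360 and 316 counts over an effective length of 254 bases, against 4001 and 3698 counts for Gng2.

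Below these came Gng10 (30.8 and 32.1), Gng12 (27.2 and 24.6), Gng5 (22.0 and 20.1) and Gng4 (19.6 and 25.0). Gng7 exceeded Gng12 by 1.24 ± 0.02 on the log2 scale, or by 1.92 ± 0.03 in the read-based tables. Gng11 was lower, at 4.58 and 4.78 on 74 and 72 counts. Gng8 (0.66 and 1.22) and the cone subunit Gngt2 (0.88 and 1.36) passed a TPM of 1 in replicate 2 only, on 12 and 16 counts there. In the alignment-based tables the rod subunit Gngt1 had 0 counts in both mice, which allows a TPM of up to 0.0769 and 0.0824. The read-based tables put it above these limits, at 0.698 and 0.492 on 9.77 and 7.37 estimated counts, so its level is uncertain. Gng10 shares its strand with the overlapping gene Gm20503 and its count was not whole (636.07 in replicate 1), so its level is uncertain.

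**Figure D2:**
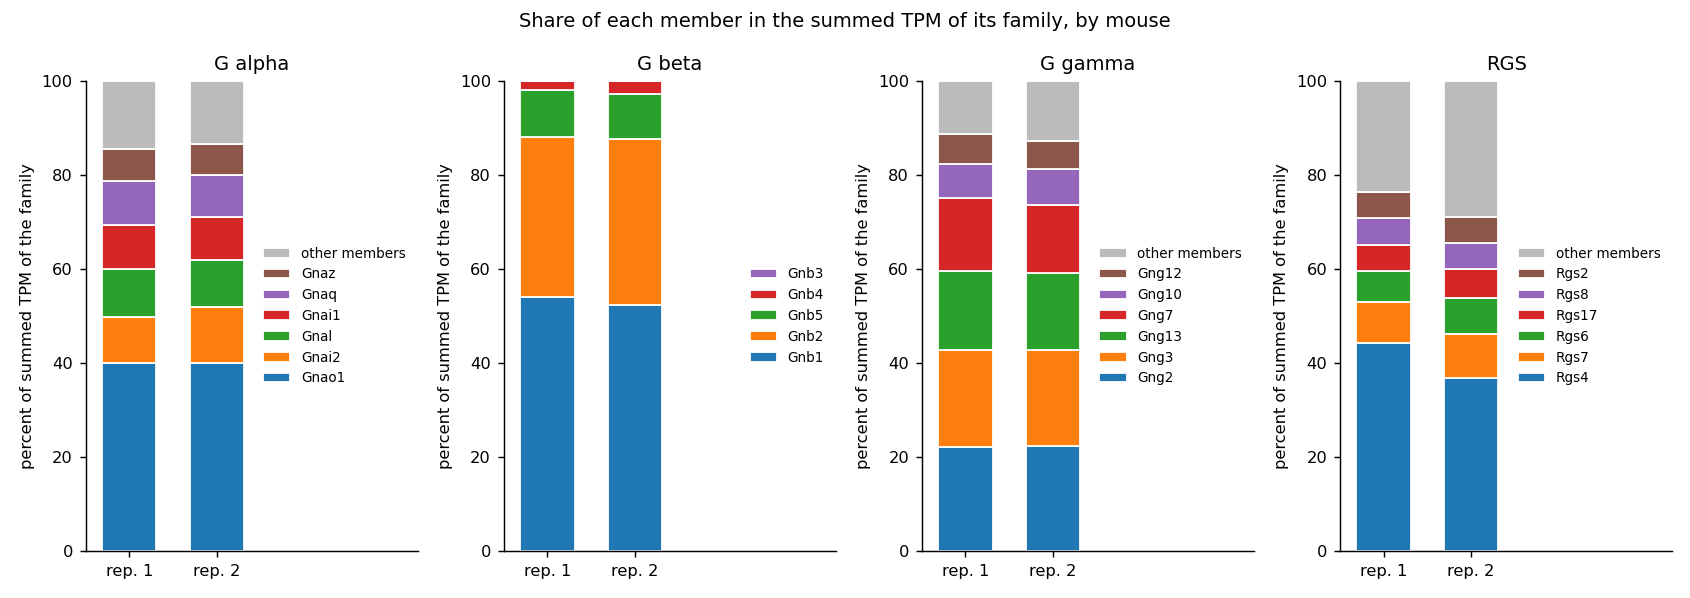
Share of each member in the summed TPM of its family, as stacked bars per mouse, with the 6 most abundant members named and the rest in grey. The bars of the G alpha, G beta and G gamma families are alike in both mice, while the Rgs4 segment is 44.3% in replicate 1 and 36.8% in replicate 2.

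Among RGS genes, 1 member of the R4 subfamily stood out. These are mostly small proteins that act on Gi/o and Gq subunits. Rgs4 (chr1:169741477-169747642, minus strand) was at a TPM of 247.5 in replicate 1 and 187 in replicate 2, and held 40.6% ± 5.30 of the RGS sum. Of the 19 RGS genes in the set only Rgs4 was above 100 TPM, and its level was the higher in replicate 1. Rgs8 stood at 32.3 and 28.9, and Rgs2, which prefers Gq subunits, at 30.6 and 28.4. Rgs4 exceeded Rgs2 by 2.83 ± 0.21 on the log2 scale. Rgs16 was at 4.54 and 3.71. Rgs3 was at 10.4 and 12.5, on counts of 497.96 and 511.27. Of its TPM, 56.2% and 53.2% lay on transcripts that are not protein-coding, as described below, so its level is uncertain. The 4 R4 genes known mainly from blood cells or taste cells were near 0: Rgs13 at 0.18 and 0.31, Rgs1 at 0.21 and 0.04, Rgs18 at 0 and 0.06, and Rgs21 with 0 counts in both mice, which allows up to 0.0579 and 0.0619.

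Members of the other RGS subfamilies lay in a narrower range. In the R7 subfamily, whose proteins pair with Gnb5, Rgs7 was at 48.2 and 47.8 and Rgs6 at 36.6 and 39.4. Rgs7 exceeded Rgs6 by 0.33 ± 0.08 on the log2 scale, or by 0.14 ± 0.04 in the read-based tables. Rgs11 was listed at 16.1 and 23.9, nearly all of it on transcripts that are not protein-coding, as described below. In the R12 subfamily Rgs12 was at 23.5 and 24.6, Rgs14 at 21.7 and 23.7, and Rgs10, a gene known from microglia, at 21.5 and 22.1. Rgs12 and Rgs14 also carry a GoLoco motif that binds Gi proteins in their GDP form. All 3 were nearly equal in the alignment-based tables. In the read-based tables Rgs10 was the highest, at a mean TPM of 46.2 against 36.3 for Rgs12 and 35.5 for Rgs14. In the RZ subfamily, which acts on G alpha z, Rgs17 was at 31.7 and 30.6, Rgs20 at 21.9 and 19.6 and Rgs19 at 11.4 and 15.9. Rgs17 exceeded Rgs20 by 0.57 ± 0.07 on the log2 scale in the alignment-based tables and by 0.036 ± 0.07 in the read-based ones. Rgs22, known from testis, was at 0.53 and 0.47.

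The gene-level values count every transcript of a gene, including types that are not protein-coding. In 3 of the 37 expressed genes at least 50% of the TPM lay on such other types in both mice. This share was near the 8.34% of all expressed protein-coding genes. Rgs11 (chr17:26202951-26211324, plus strand) was the extreme, with 94.5% and 97.5% on 8 retained-intron transcripts. Its protein-coding transcripts came to a TPM of 0.88 and 0.59, on 32.9 and 20.5 counts, under the threshold used here for expression. The read-based tables gave 89.7% and 100% for Rgs11. Rgs11 also overlaps Arhgdig, which lies on the opposite strand at 45.0 and 41.6 TPM; whether counting used the strand is not given in the sources used here, so reads of the pair may not be told apart. Rgs20 overlaps Atp6v1h (101 and 97.2) and Gng3 overlaps Bscl2 (47.2 and 51.9) in the same way, and Gnal shares its strand with Chmp1b (10.98 and 11.2). Gngt2, with 10 and 16 counts, lies opposite Abi3, with 104 and 109. Gna12 lies opposite Amz1 (328 and 475 counts) and Gng13 opposite Chtf18 (29 and 35 counts). All these levels carry the same doubt.

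For Gnb4 the share on other types was 62.4% and 63.8%, but 38.7% and 23.0% in the read-based tables. For Rgs3 it was 56.2% and 53.2%, and 63.7% and 44.7% in the read-based tables. Gnb2 had 45.5% and 45.7%, led by the retained-intron transcript Gnb2-213 at 74.6 and 73.9 TPM, which the read-based tables put at 0. With protein-coding transcripts alone, a count added after seeing the data, Gnb1 held 63.7% of the G beta sum and 36 genes were expressed, against 56.5% of protein-coding genes. Rgs2 had 40.4% and 28.2%, mostly on Rgs2-201, a transcript annotated for nonsense-mediated decay. In 25 of the 37 genes the share was under 10% in both mice, against 43.5% of all expressed protein-coding genes, and the median was 4.09%, beside 11.2% over all expressed protein-coding genes.

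**Figure D3:**
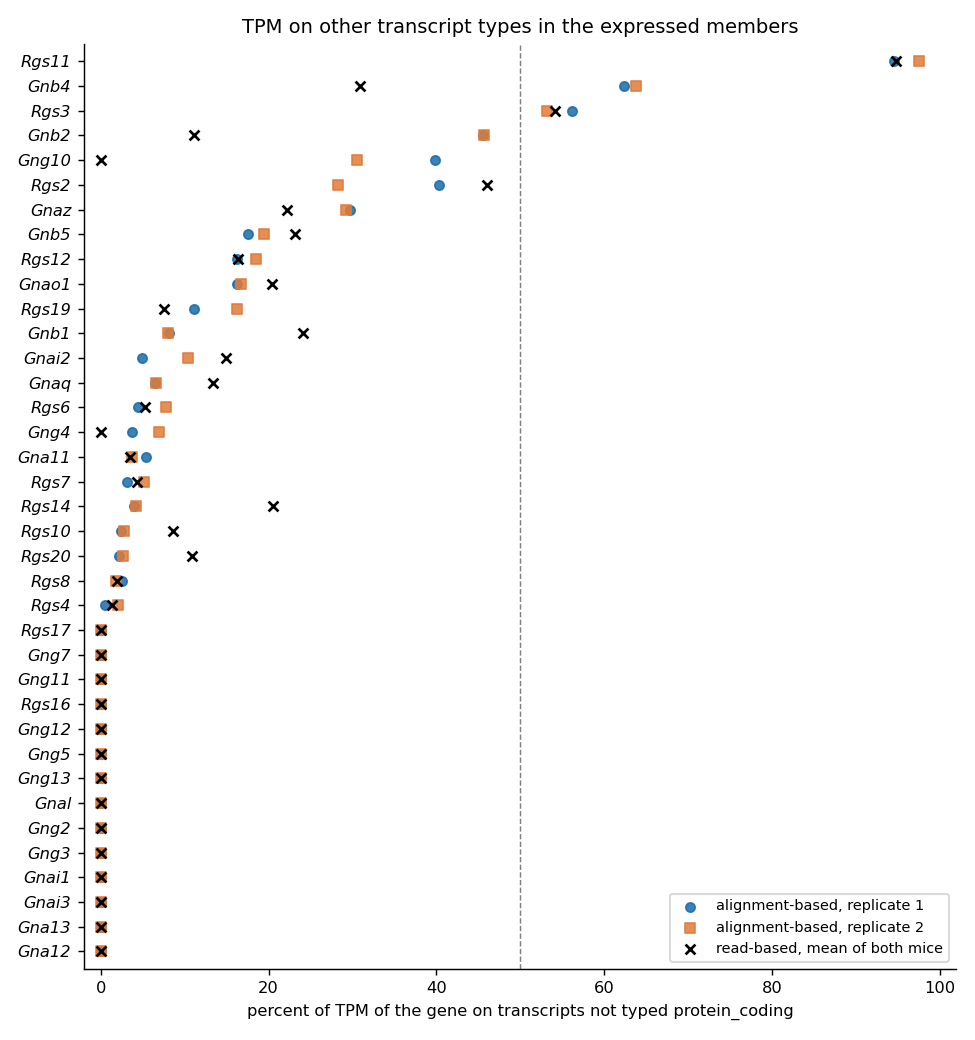
Percent of the TPM of each of the 37 expressed genes on transcripts not typed as protein-coding, with points for each mouse in the alignment-based tables and crosses for the read-based mean. Rgs11, Gnb4 and Rgs3 lie right of the dashed line at 50% in both mice, and the crosses of Gnb4 and Gnb2 lie far to the left of their points.

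The leading transcript was the same in both kinds of table for 24 of the 32 genes that had at least 2 transcripts, against 75.9% of expressed protein-coding genes with at least 2. When transcripts with the same coding sequence were pooled, an approach chosen after seeing the data, the leading sequence was the same for 29 of 32, against 88.1% of expressed protein-coding genes. Agreement was close for Gnaq-201 (93.5% of the gene's TPM, 86.7% in the read-based tables), Gna11-201 (95.5% and 96.6%) and Rgs4-201 (98.7% and 98.5%). Gng2, Gng13 and Gnaz gave 1 coding sequence each, so their splits between transcripts do not bear on the protein. The protein forms of the RGS genes with many transcripts were mixed. Rgs7-206 held 57.1% ± 11.4 of the coding TPM of Rgs7, and Rgs7-207, with a coding sequence of 1431 bases against 1410, held 25.7% ± 3.05. Rgs6-208 and 2 transcripts with the same coding sequence held 39.4% ± 2.32 for Rgs6, and Rgs12-206 held 42.9% ± 0.832 for Rgs12, where Rgs12-204 held 33.8% (1.29% in the read-based tables).

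Several splits were not stable and are uncertain. The short coding sequence of Gnb5, Gnb5-206 with 1059 bases, held 99.2% ± 1.18 of the coding TPM in the alignment-based tables but 51.5% ± 1.70 in the read-based ones, where the sequence of 1185 bases held 48.5%. The longer of these encodes the form known from retina. Gng7-203 was at a TPM of 19.5 in replicate 1 and 1.41 in replicate 2 while Gng7-201 was at 1.35 and 18.1, and their coding sequences, of 204 and 207 bases, differ. The Gng7 gene level did not show this difference. For Gng5 the leading transcript was Gng5-201 (97.4%) in one kind of table and Gng5-203 (81.0%) in the other. For Rgs17, Rgs17-203 and Rgs17-204 together held 97.0% ± 2.48 of the coding TPM, or 47.0% ± 19.8 in the read-based tables. There Rgs17-202, whose coding sequence differs, held 40.2% ± 16.0, and it was at 0 in the alignment-based tables. Other splits under 80%, each with its read-based value next, were Gna13-201 at 70.6% (76.3%), Gnai2-201 at 69.0% (74.6%), Gnb1-201 at 51.1% (32.8%), Gng12-201 at 54.9% (72.8%), Rgs8-202 at 57.0% (48.3%), Rgs20-201 at 71.7% (49.7%), Rgs19-201 at 53.6% (37.5%) and Gng10-201 at 64.8% (100%).

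The tables also differed in level. The read-based TPM exceeded the alignment-based TPM by a median of 0.49 on the log2 scale over the expressed genes here and of 0.58 over all expressed protein-coding genes. The largest differences were in Rgs10 (1.05), Gnao1 (1.04), Gnb1 (1.03), Rgs20 (1.00) and Rgs8 (0.90). Gnao1 was at a read-based mean TPM of 664, and Gnb1 at 795.

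Some of these genes lie beside each other in the genome, and neighbours could differ widely in level. There were 10 pairs of members with no other protein-coding gene between them, and in 6 of these 1 gene was expressed and the other was not, against 32.4% of all neighbouring protein-coding pairs. Gna11 (45.4 and 45.6) lies 4498 bases from Gna15 (0.86 and 1.36) on the same strand of chromosome 10. Gnai3 lies 5847 bases from Gnat2 on chromosome 3, and Gng11 lies 6467 bases from Gngt1 on chromosome 6. Gnai1 and Gnat3 lie 245.3 kb apart on chromosome 5. On chromosome 1, Rgs2, Rgs13, Rgs1, Rgs21 and Rgs18 follow each other on the minus strand, and of these 5 only Rgs2 was expressed. Rgs8 and Rgs16, on the plus strand of the same chromosome, were both expressed.

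**Figure D4:**
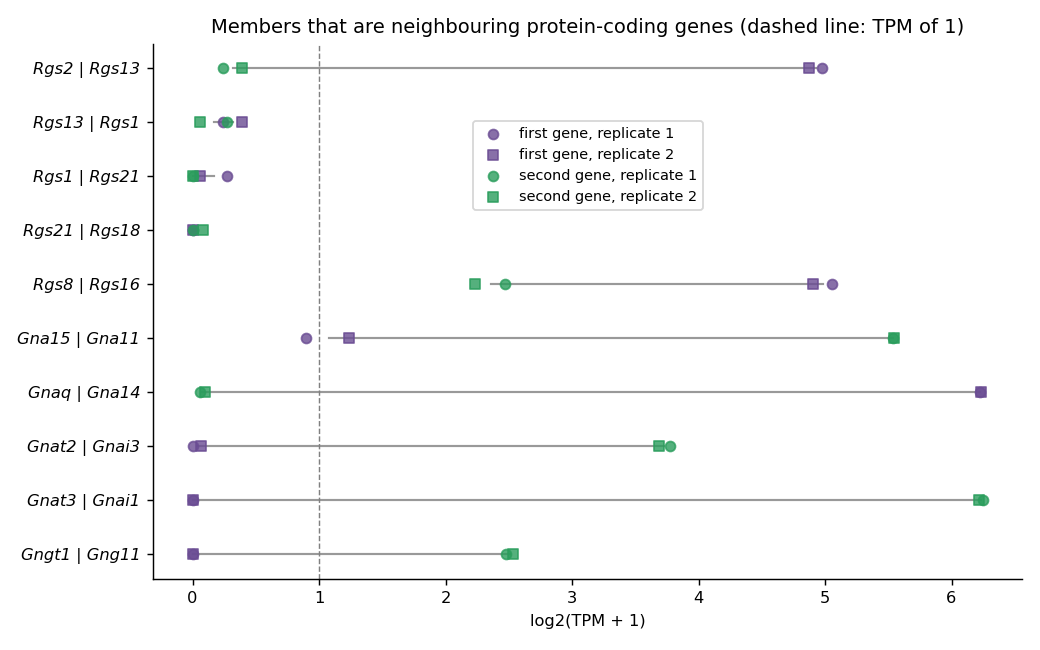
Levels of the 10 neighbouring pairs on the log2(TPM + 1) scale, with purple for the gene that comes first on the chromosome, green for the next and a grey line joining their means. In 6 pairs the line runs from the left of the dashed line, or a point on either side of it for Gna15, to an expressed gene.

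Upstream sequence is shown for a pair of such neighbours, Gnaq and Gna14, for Rgs2 and Rgs13, and for Rgs4, the RGS gene that led. Each is the 250 bases before the RefSeq start in GRCm38.p6, written in the direction of the gene, with every CG in capitals.
Gnaq, chr19:16132434-16132683, plus strand: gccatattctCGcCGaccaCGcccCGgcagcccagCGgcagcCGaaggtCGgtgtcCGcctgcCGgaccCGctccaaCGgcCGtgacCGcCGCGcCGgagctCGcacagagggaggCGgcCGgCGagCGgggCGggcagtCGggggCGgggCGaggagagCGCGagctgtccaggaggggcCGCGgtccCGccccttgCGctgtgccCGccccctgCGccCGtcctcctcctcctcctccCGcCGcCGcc
Gna14, chr19:16435417-16435666, plus strand: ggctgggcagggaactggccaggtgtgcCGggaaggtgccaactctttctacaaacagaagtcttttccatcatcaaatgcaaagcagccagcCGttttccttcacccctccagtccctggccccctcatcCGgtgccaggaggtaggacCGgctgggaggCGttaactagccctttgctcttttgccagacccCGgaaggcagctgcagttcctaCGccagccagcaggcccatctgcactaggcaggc
Rgs2, chr1:144004150-144004399, minus strand: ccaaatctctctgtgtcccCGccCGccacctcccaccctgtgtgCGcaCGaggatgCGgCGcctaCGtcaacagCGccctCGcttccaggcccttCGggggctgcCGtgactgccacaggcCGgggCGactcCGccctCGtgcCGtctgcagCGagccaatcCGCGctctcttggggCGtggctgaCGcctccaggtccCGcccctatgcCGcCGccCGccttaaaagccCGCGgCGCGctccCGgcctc
Rgs13, chr1:144177373-144177622, minus strand: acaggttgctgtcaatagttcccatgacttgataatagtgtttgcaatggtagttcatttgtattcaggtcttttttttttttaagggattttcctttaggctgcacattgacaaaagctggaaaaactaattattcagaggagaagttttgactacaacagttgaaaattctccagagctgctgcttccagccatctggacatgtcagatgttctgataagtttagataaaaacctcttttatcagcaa
Rgs4, chr1:169747643-169747892, minus strand: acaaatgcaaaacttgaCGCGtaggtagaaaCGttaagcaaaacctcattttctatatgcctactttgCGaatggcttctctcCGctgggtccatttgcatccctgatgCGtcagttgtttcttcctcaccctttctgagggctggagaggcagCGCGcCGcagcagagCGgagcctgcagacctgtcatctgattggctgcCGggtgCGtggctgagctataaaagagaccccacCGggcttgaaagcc
The windows of Gnaq and Rgs2 hold 37 and 30 CG dinucleotides, that of Rgs4 holds 13, and those of Gna14 and Rgs13 hold 7 and 0. RefSeq promoters of 300 bases, 250 before and 50 after a start, were matched by symbol for 37 of the 51 genes. The median number of CG was 27 (2 to 53) in the 29 expressed genes and 5 (0 to 8) in the 8 others. Over all protein-coding genes with a promoter the medians were 21 where expressed and 3 elsewhere, so expressed genes had more CG there as well. The letters TATAAA, on either strand, were in 4 of the 37 promoters (10.8%), Rgs4 among them, and in 12.8% of 16531 promoters. The cyclic AMP response element TGACGTCA, which is its own reverse complement, was in 0 of the 37 and in 2.43% of all. The listed start lay far from the start of the leading coding transcript for Rgs21 (16103 bases), Rgs12 (9694 bases) and Gnb5 (7848 bases).

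Members known from photoreceptors, taste cells and blood cells were low here, apart from Gng13 at a TPM of 71.9 and 67.8, and Gnal, known from olfactory neurons, was at 80.1 and 81.7. Beside Gnat1, Gnat2, Gngt1 and Gngt2, the photoreceptor markers Crx and Prph2 had 0 counts in both mice. Beside Gnat3 and Rgs21, 1 of 4 taste cell markers was expressed, with a sum of 1.61 and 1.67 and Trpm5 at 0. That gene was Plcb2. Beside Rgs1, Rgs13, Rgs18 and Gna15, 1 of 5 lymphocyte markers was expressed, Ptprc, a gene that microglia also express, with a list sum of 1.47 and 1.67.

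The partners and targets of these proteins were mostly present. Of 42 pathway genes in 9 lists, 35 were expressed, against 58.6% of all protein-coding genes. All 9 adenylyl cyclases were expressed, led by the calcium-stimulated Adcy1 at a TPM of 136 and 116 and by Adcy5 at 62.7 and 63.4. All 4 phospholipase C beta genes, the targets of Gq, were expressed, with Plcb1 at 85.3 and 86.4 and Plcb4 at 33.1 and 36.0. Of 4 potassium channel genes opened by G beta gamma 3 were expressed, Kcnj9 at 55.7 and 59.96, Kcnj3 at 42.0 and 49.0 and Kcnj6 at 41.2 and 45.4, and Kcnj5 was at 0.24 and 0.33.

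Of the genes that switch receptors off, 5 of 6 receptor kinases and 3 of 4 arrestins were expressed. Grk2 was at 97.7 and 98.5, Grk3 at 33.6 and 40.2, Arrb1 at 76.7 and 83.5 and Arrb2 at 32.3 and 33.6. The other expressed arrestin, Sag, was at 1.24 and 1.65. The photoreceptor kinase Grk1 was at 0.01 and 0, but at a mean TPM of 3.56 in the read-based tables, so its level is uncertain. Of the partners of R7 proteins, the membrane anchor Rgs7bp (81.2 and 74.4) and the orphan receptor Gpr158 (55.2 and 53.6) were expressed, and the retinal genes Rgs9bp and Gpr179 were below 0.3 in both mice. In the list of GoLoco proteins and chaperones 6 of 8 genes were expressed, led by the G alpha chaperones Ric8a (25.99 and 30.1) and Ric8b (24.8 and 28.5), with Pdc at 0 in both mice. The Ras-like inhibitor Rasd2 was at 60.2 and 46.9, and Rasd1 had 254 and 139 counts. Their log2 ratios between the mice, scaled as described below, were -0.41 and -0.83. Under spike-in scaling these were -0.02 and -0.43, so their size depends on the scale.

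Between the mice the G protein and RGS genes differed about as much as other genes did. With expected counts scaled by edgeR's TMM and a prior count of 0.5, none of the 36 genes averaging 100 counts or more (0 higher, 0 lower) was past 0.5 in log2 ratio, against 2.26% of all protein-coding genes at that depth, 1.19% higher in replicate 2 and 1.07% lower. The log2 ratios, taken as replicate 2 over replicate 1, had a median of -0.09, beside -0.03 over all genes, and 27 of 36 lay below 0, against 57.0% of all genes tested. These counts depend on the scaling: 27 lay below 0 with DESeq2 size factors (57.9% of all genes), 22 with library totals (39.9%) and 1, Rgs4, with spike-in totals (1.82%). The median absolute ratio was 0.11, beside 0.10, and 28 of 36 lay within 0.2, against 78.5% of all genes. Gnao1 (-0.05), Gnaq (-0.06), Gna11 (-0.03), Gnal (-0.03) and Gnb2 (-0.03) were among the closest.

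Rgs4 was the lowest at -0.48, with an exact binomial interval at 95% of -0.52 to -0.44 from 13787 and 9643 counts, and 1.14% of all tested genes were as low or lower. The ratio was -0.52 in the read-based tables and -0.08 under spike-in scaling, which raised all ratios by 0.40, so its size depends on the scale. Rgs20 (-0.37) and Rgs16 (-0.35) came next, and were 0.02 and 0.05 under spike-in scaling. At the other end, Rgs11 was at 0.38 with an interval of 0.21 to 0.55 from 532 and 676 counts, 0.21 in the read-based tables and 0.78 under spike-in scaling. Gng4 (0.24) and Gnb4 (0.20) followed, and Gng12 was at -0.24. Such intervals cover counting error only.

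Other genes also differed between the mice, and 2 samples cannot show whether any of them vary together with Rgs4. All 10 activity-induced genes of the list, such as Arc (173 and 35.6 TPM) and Fos (27.7 and 9.66), were lower in replicate 2 by over 0.5, with a median log2 ratio of -1.29, a range of -2.34 to -0.59, and a summed TPM of 492 and 192. Under spike-in scaling their median was -0.89, and 8 of 10 were lower by over 0.5. Medians of the cell type and region lists with 3 or more genes tested ran from -0.41 for striatal markers, -0.33 for oligodendrocytes (summed TPM 1300.5 and 1083) and -0.18 for excitatory neurons (2672 and 2521) to 0.08 for thalamus and 0.20 for endothelial and mural cells. Spike-in scaling turned these 5 medians to -0.02, 0.07, 0.22, 0.48 and 0.60. Their part in the ratio of Rgs4 was not tested.

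**Figure D5:**
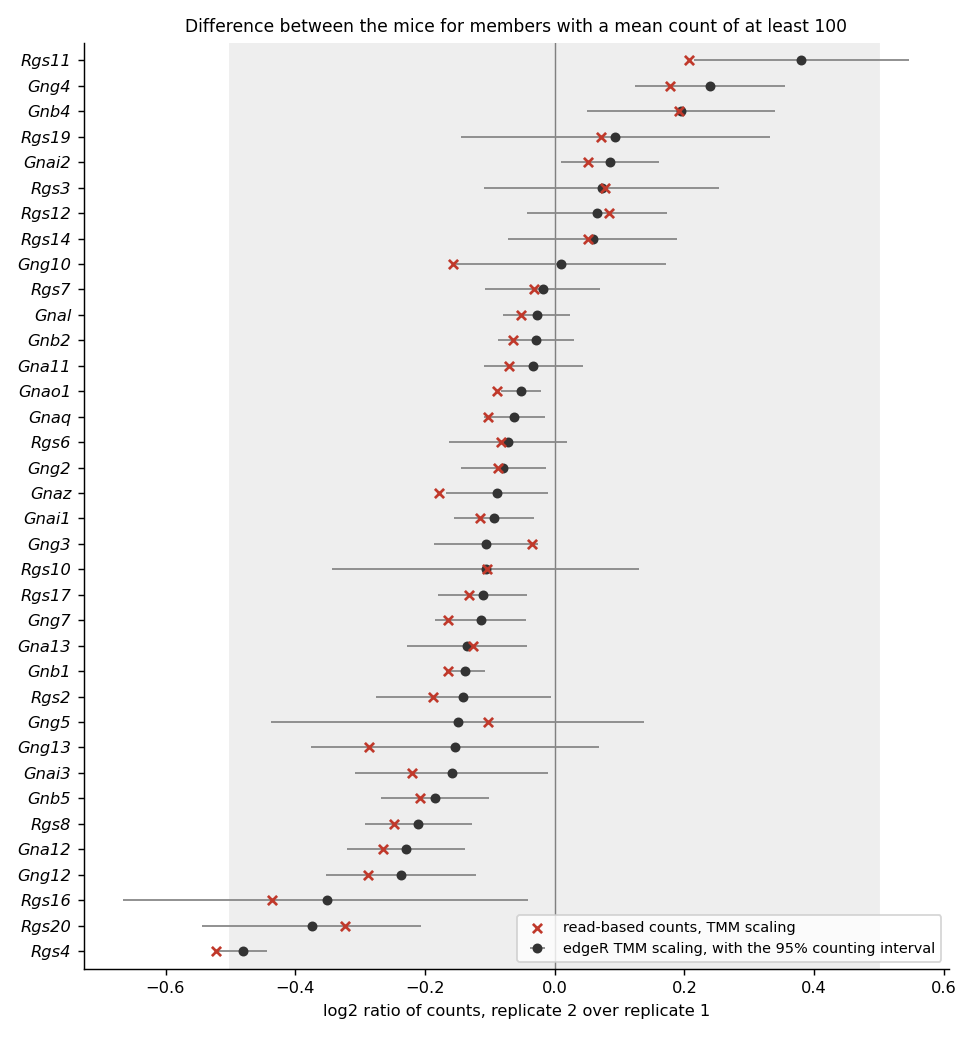
Log2 ratio of counts in replicate 2 over replicate 1 for the 36 genes that averaged 100 counts or more, with points and 95% counting intervals from TMM-scaled expected counts and crosses from the read-based counts. All points lie in the grey band from -0.5 to 0.5, with Rgs4 lowest at -0.48 and Rgs11 highest at 0.38.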

How the data were processed

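Total RNA of left cerebral cortex from 2 mice was quantified by the depositing laboratory in 2 ways, called alignment-based and read-based here. The deposited alignment-based gene and transcript tables hold expected counts (not normalized), TPM over all listed RNAs and, for transcripts, their percent of the gene, per the file headers. The deposited read-based transcript tables hold estimated counts and TPM, which were summed per gene. The build is mm10 with GENCODE M21, per the labels and the deposited listing, and which aligner and quantifiers were run is not given in the sources used here. These mice carry a CAST genome copy beside the B6 copy that mm10 represents, and the effect of this on the counts was not tested.

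Symbols, transcript types and coordinates (1-based) came from GENCODE M21, which covered all 55536 gene identifiers, and upstream sequences from RefSeq (GRCm38.p6). Levels are mean ± SD of the deposited TPM, with a pseudocount of 1 on the log2 scale. Ratios between the mice used expected counts scaled with edgeR 4.0.16 (TMM) in R 4.3.3, a prior count of 0.5 and a mean count of at least 100; the limit that a count of 0 allows was 3 counts. With 1 library per mouse no p-value was computed. The other steps used Python 3.11.15, with pandas 2.3.3 for tables, numpy 2.4.6 and scipy 1.17.1 for intervals and matplotlib 3.10.9 for plots, and the ratio step was tested on simulated data. Expected counts split reads of overlapping or similar genes. The cases named above are given as uncertain, and not every overlap is named.

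The members and the gene lists were chosen with earlier results of these data known. All members are accounted for; values are given for the 3 most abundant of each subfamily, members under a TPM of 1, 12 pairs of related genes, transcripts holding under 80% of a gene at a TPM of at least 10, the 5 largest differences between tables, and the 2 most abundant genes of each pathway list. Some genes of the lists are not reported here. Alternatives were TPM thresholds of 0.1 and 5, a pseudocount of 0.1, members with at least 10 counts, TPM rescaled to nuclear protein-coding genes, the read-based tables, expected counts in place of TPM, scaling by spike-in totals, by library totals or by DESeq2 1.42.0, count minimums of 20 and 500, a log2 ratio of 1, a TPM of 10 for the transcript comparison, and leaving out each mouse.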

Additional observations from a re-analysis of the deposited data

How the results depend on the processing

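No paired analysis was possible because both mice belong to 1 group. The number of expressed genes, 37, ranged from 35 to 43 over its alternatives. The read-based tables moved most values: family medians on the log2(TPM + 1) scale became 5.55 for G alpha, 7.002 for G beta, 5.08 for G gamma and 5.15 for RGS, and leading shares 48.5% for Gnao1, 63.4% for Gnb1 and 17.9% for Gng2. The log2 differences became 2.70 for Gnao1 from Gnai1, 2.38 for Gnao1 from Gnai2, 0.84 for Gnaq from Gna11, -0.56 for Gna13 from Gna12, -3.33 for Gnal from Gnas, 1.36 for Gnb1 from Gnb2, -5.16 for Gnb4 from Gnb1, 1.92 for Gng7 from Gng12, 0.14 for Rgs7 from Rgs6 and 0.036 for Rgs17 from Rgs20. For Gng3 from Gng2 the sign turned, to 0.17. The cause of these changes was not tested. TPM rescaled to nuclear protein-coding genes gave medians of 6.14, 7.32, 5.79 and 5.62 for the G alpha, G beta, G gamma and RGS families, and members with at least 10 counts gave 5.78, 7.09, 4.89 and 4.58. A pseudocount of 0.1 gave 4.63 for G gamma and 4.46 for RGS, 0.70 for Gnaq from Gna11, -3.22 for Gnal from Gnas and 1.26 for Gng7 from Gng12. Expected counts in place of TPM gave shares of 36.3% for Gnao1, 69.6% for Gnb1 and 28.8% for Gng2. Protein-coding transcripts alone, an alternative chosen after seeing the data, gave 37.3%, 63.7% and 23.0%. The share of Rgs4 stayed between 36.4% and 44.3% in its alternatives. The number of genes with a log2 ratio over 0.5 between the mice, 0, became 3 with spike-in totals (Gnb4, Gng4 and Rgs11, with 22.5% of all genes past the same limit), 1 with a mean count of at least 20 (Gna15) and 1 in the read-based tables (Rgs4). It was 0 with DESeq2 size factors, with library totals, for genes averaging 500 counts or more and at a log2 ratio of 1. The same leading transcript was seen in 23 and 26 of 32 genes with either mouse left out. Genes under 10 counts in either mouse, 11 of 51, are too shallow for a statement on their order.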
